A study of Macaca mulatta with 10 samples.

Results

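The genes described here build the route that carries newly made proteins into the endoplasmic reticulum (ER) and on to the Golgi. Members were all probe sets whose platform annotation gives exactly 1 symbol starting with SEC, SSR or SRP and a digit, or with SPCS, TMED, TRAPPC, ARFGAP, COPA, COPB, COPE, COPG or COPZ. No signal level entered that choice, which gave 105 of 52865 probe sets and 54 of 14133 genes. Liver RNA of 10 rhesus macaques was measured on 1-colour arrays, with 1 array per animal. The comparison asks how liver expression after brain death differs from that of living donors.

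The 5 brain-dead animals were 2 females and 3 males of 7 to 18 years, with 1 age not given. Brain death was induced by slowly filling a balloon catheter placed outside the dura, and it was held for 6 h by the sample labels and for 5 h by the series' design text. Blood pressure was supported with lactated Ringer's solution and with arginine-vasopressin, dopamine or both, so these agents came with brain death. The 5 control animals were 3 females and 2 males of 4 to 20 years that were sedated, anaesthetised and ventilated for 1 h. The groups therefore also differed in time under support, and brain death, its drugs and that time cannot be told apart. In both groups the liver was flushed in place with UW preservation solution before it was removed. The labels give no strain, genotype or allele.

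A secreted protein is recognised by the signal recognition particle (SRP) as it leaves the ribosome, and passes through the SEC61 channel into the ER. There signal peptidase cuts off the signal peptide, and the translocon-associated protein (TRAP) complex assists the channel. Cargo leaves the ER in vesicles coated with COPII, is gathered by p24 receptors of the TMED family and is tethered by TRAPP complexes, and COPI-coated vesicles bring escaped proteins back. Hepatocytes secrete most plasma proteins and lean heavily on this route. The rule by symbol also drew in the SEC14-like genes, which encode lipid-binding proteins and belong to neither the channel nor a coat, so counts are also given without them.

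The deposited signal had the same 2% trimmed mean of 1000 on every array, with array medians of 175 to 227, and ranks correlated between arrays at 0.885 to 0.926 (Spearman's rho across probe sets). The animals numbered 1 stood apart for many members. Both were the lowest of their group for 26 of 91 member probe sets tested (28.6%), against 9.17% of all probe sets tested, and both were the highest for 12 (13.2%) against 11.8%. Hepatocyte markers were abundant. The summed signal of the 7 measured was 672700 to 823600 in controls and 586900 to 638900 after brain death, so the groups did not overlap; all 7 had a change below 0 and none passed the test. B and plasma cells are rich in secretory machinery, and the summed signal of their 3 tested markers was 1755 to 2938 in controls and 1111 to 3081 after brain death, while MS4A1, CD79A, MZB1 and TNFRSF17 were too dim to test. Of the markers tested for bile duct (2), endothelium (6), stellate cells and fibroblasts (3), macrophages (6), neutrophils (2) and T and NK cells (2), none passed the test, and the range of each summed signal overlapped between groups. The part of these cell types in the results below was not tested, and in whole tissue fewer cells of a type and less RNA per cell cannot be told apart.

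Of the 91 member probe sets bright enough to test, 7 changed at an adjusted p under 0.05 (7.69%), against 6.1% of all probe sets tested. 5 were higher after brain death (5.49%, against 2.72%) and 2 were lower (2.2%, against 3.39%). These shares rest on few calls and lie near the background, and nothing particular to the members is read from them. Counted by gene, with each gene taken at its brightest probe set, 5 of 51 changed (9.8%, against 6.77% of all genes): SEC61A1, SRP54, SEC24D and SEC14L2 rose, and SEC14L4 fell. Without the SEC14-like genes, 3 of 48 genes changed (6.25%), and 4 of 85 probe sets (4.71%), all of them higher. At an unadjusted p under 0.05, 23 of the 91 member probe sets passed, against 6313 of all 26653 (23.7%). The 2 groups did not overlap for 4 member probe sets (4.4%, against 6.93%) and for 3 member genes (5.88%, against 7.8%). Without the SEC14-like genes this held for 2 of 85 probe sets (2.35%) and 1 of 48 genes (2.08%).

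The median log2 change of the 51 member genes was 0.25, and 33 of them (64.7%) lay above 0. Over all 9835 genes tested the median was -0.0069 and 49.5% lay above 0. With no filter on signal, the 105 member probe sets had a median of 0.18 and 61.9% lay above 0, against -0.03 and 48%. The 14 member probe sets left untested were dim, with group means of 10.1 to 226.9, and 3 genes had no other probe set: SEC14L3, SEC14L5 and TMED8. None of the 91 tested passed the filter through 1 group alone, and 86 were above the median on all 10 arrays. Precision was set by 5 arrays a group: the 95% interval of the change stayed within 2-fold either way for 25 of 51 member genes (49%), against 53.5% of all genes. The p-values set each group difference against the spread within groups among these 10 animals, as limma moderates it over all probe sets tested.

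**Figure D1:**
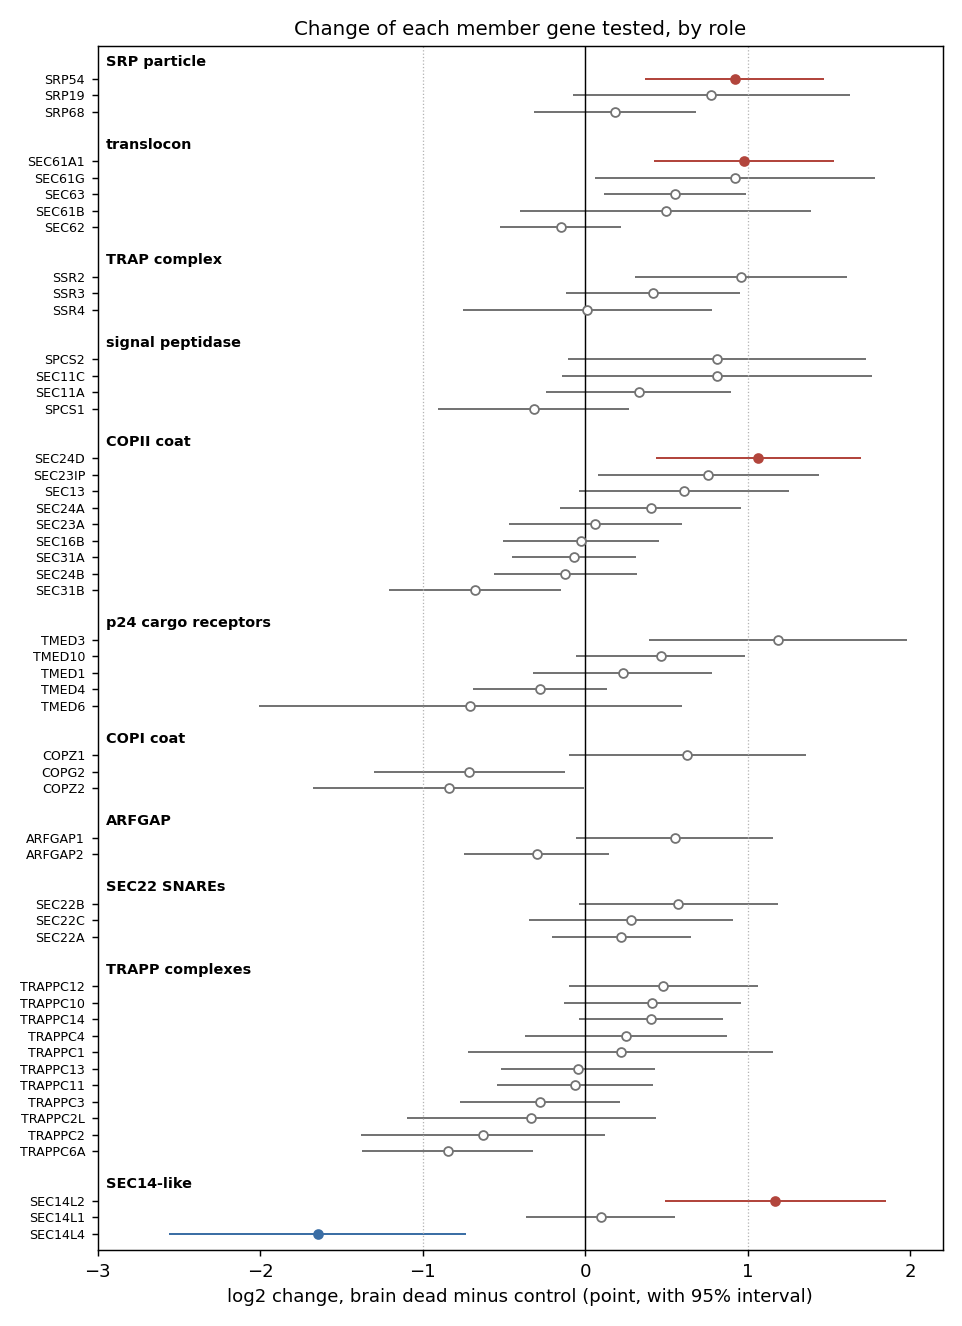
Log2 change (brain dead minus control, horizontal axis) of each of the 51 member genes tested, with its 95% interval, grouped by role; filled red and blue points passed the adjusted threshold of 0.05 (higher and lower) and open grey points did not. SRP, translocon, TRAP and signal peptidase genes lie mostly to the right of 0, while COPI and TRAPP genes lie on both sides.

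Most genes of ER entry had a change above 0, though few passed the test. Of the 15 tested genes of SRP, the translocon, TRAP and signal peptidase, 13 lay above 0 (86.7%) and the median log2 change was 0.55, and 2 rose past the threshold. Of all genes tested, 49.5% lay above 0 and 2.9% rose. Of the 33 genes of the coats, p24 receptors, ARFGAP proteins, SEC22 family and TRAPP, 18 lay above 0 (54.5%) and the median was 0.22, and 1 rose. The 4 roles of ER entry were put together after their values were seen, and the difference between these 15 and 33 genes was not tested.

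SEC61A1, the pore-forming subunit of the translocon, rose with both of its probe sets. On the brighter one the controls read 8803, 6638, 8134, 7199 and 8251 (animals 1 to 5), and the brain-dead animals read 19770, 8243, 13520, 17890 and 21230. Brain-dead animal 2 lay within the control range, and the other 4 brain-dead animals lay above every control. The log2 change was 0.98 ± 0.25 (SE, limma adjusted p = 0.0403), a 1.97-fold increase. On the dimmer one the controls read 3555, 2808, 3721, 5128 and 4040 and the brain-dead animals 10740, 4413, 10540, 9672 and 10900, again with brain-dead animal 2 alone inside the control range. That change was 1.22 ± 0.28 (limma adjusted p = 0.0236), or 2.33-fold. Its call ended on leaving out control animal 1 (0.0502), 2 (0.0643) or 3 (0.0551), or brain-dead animal 3 (0.0557), 4 (0.0555) or 5 (0.0621). The brighter one kept its call only without brain-dead animal 2 (limma adjusted p = 0.00867), and leaving out any other single animal ended it, with adjusted p from 0.0533 without control animal 4 to 0.101 without brain-dead animal 5.

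The small channel subunits SEC61G and SEC61B did not pass the test. SEC61G changed by 0.93 ± 0.40 on the log2 scale (limma adjusted p = 0.179) and SEC61B by 0.50 ± 0.41 (limma adjusted p = 0.503). For SEC61B, brain-dead animal 1 read 8201 and the other 4 read 26770 to 37170, while control animal 1 read 6811 and the other controls 15630 to 22650. Both animals numbered 1 were thus the lowest, and this held for SEC61G too, at 2330 among controls and 4903 among brain-dead animals. Without control animal 1 the changes were 0.19 for SEC61B and 0.62 for SEC61G, and without brain-dead animal 1 they were 0.86 and 1.19, none of them past the threshold. SEC63, a channel partner that recruits an ER chaperone, had all 5 brain-dead animals above all controls on its brightest probe set, at 9381 to 13970 against 5580 to 8564. Its log2 change of 0.55 ± 0.20 missed the threshold (limma adjusted p = 0.113). Its other 2 probe sets gave 0.17 and -0.11. SEC62, which works beside SEC63, had changes below 0 on all 3 of its probe sets, with -0.15 on the brightest and -0.40 on another. The remaining one separated the groups, at 2430 to 3803 in controls and 1548 to 2386 after brain death (log2 change -0.65 ± 0.21, limma adjusted p = 0.0839).

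SRP54, the SRP subunit that binds the signal peptide, rose. Controls read 4651, 3250, 4079, 8812 and 4488, and brain-dead animals read 9112, 7975, 8238, 10820 and 9140. Control animal 4 lay inside the brain-dead range, and the other 4 controls lay below every brain-dead animal. The log2 change was 0.92 ± 0.25 (limma adjusted p = 0.0489), or 1.89-fold. SRP19, which helps assemble the particle, had a change of 0.78 ± 0.39 on its brightest probe set (limma adjusted p = 0.251), and its dimmer ones gave 0.60 and -0.21. SRP68, a core SRP protein, gave 0.18 ± 0.23 on its brightest probe set (limma adjusted p = 0.674), and 0.67 and 0.29 on the others. The call of SRP54 held only without control animal 4 (limma adjusted p = 0.00801) and ended without any other animal, with a lowest value of 0.0567 (brain-dead animal 2 left out) and a highest of 0.121 (control animal 2 left out).

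No TRAP or signal peptidase gene passed the threshold. SSR2, the TRAP beta subunit, came closest at 0.96 ± 0.30 (limma adjusted p = 0.0736), with controls at 4023 to 13340 and brain-dead animals at 11160 to 23030, and its 2 other tested probe sets gave 0.72 and 0.89. On its brightest probe set SSR2 passed without control animal 4 (limma adjusted p = 0.0272), and leaving out any other single animal did not make it pass. SSR3, the gamma subunit, gave 0.42 ± 0.24 (limma adjusted p = 0.324). SSR4, the delta subunit, gave 0.01 ± 0.35, with an interval of -0.75 to 0.77, so changes within that interval are not excluded. Among signal peptidase genes, the catalytic subunits SEC11C and SEC11A gave 0.81 ± 0.44 and 0.33 ± 0.26, and the accessory subunits SPCS2 and SPCS1 gave 0.81 ± 0.42 and -0.32 ± 0.27, all 4 with limma adjusted p between 0.265 and 0.512. SSR1, the TRAP alpha subunit, was not analysed here.

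**Figure D2:**
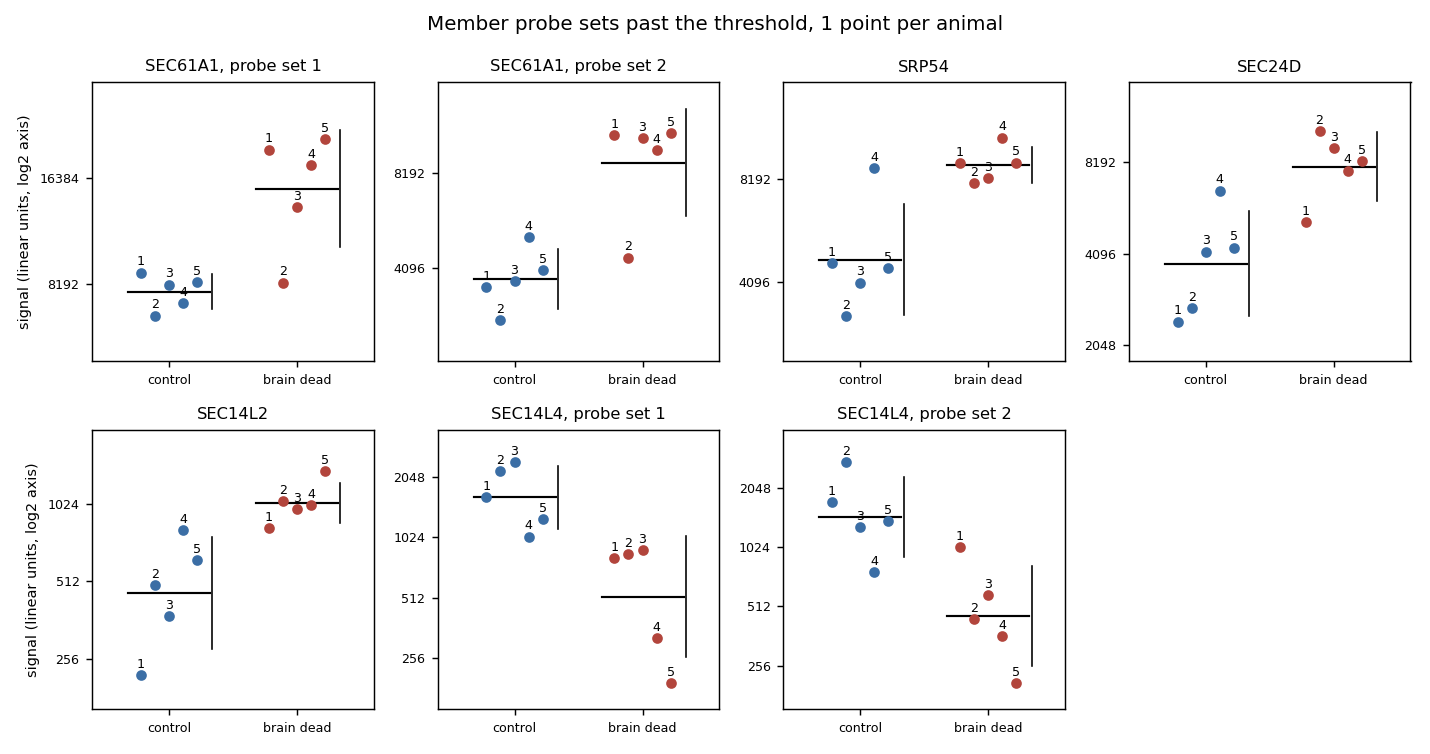
Signal of each animal (linear units on a log2 axis, points numbered by animal) for the 7 member probe sets past the threshold in controls (blue) and brain-dead animals (red); the black line is the mean of log2 signals and the bar 1 SD. Groups are separate for SEC14L2 and for the brighter probe set of SEC14L4, and in the other 5 panels at least 1 animal lies within the range of the other group.

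Of the 9 COPII genes tested, 1 rose: SEC24D, a coat protein that picks cargo. Its controls read 2441, 2710, 4161, 6616 and 4283, and its brain-dead animals read 5193, 10390, 9144, 7703 and 8282. Brain-dead animal 1 lay below control animal 4, and the groups were otherwise separate. The log2 change was 1.07 ± 0.29 (limma adjusted p = 0.0462), or 2.10-fold. The call was kept without control animal 4 (0.0162) or brain-dead animal 1 (0.0344), and ended without any of the other 8 animals, at limma adjusted p from 0.0661 without control animal 5 to 0.116 without control animal 2. The related cargo-picking proteins did not pass: SEC24A gave 0.40 ± 0.26 (limma adjusted p = 0.364) and SEC24B gave -0.12 ± 0.20 (limma adjusted p = 0.760).

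The other layers of the COPII coat gave small or opposing values. SEC23A, the inner-coat partner of the SEC24 proteins, gave 0.06 ± 0.25 with an interval of -0.47 to 0.59, and SEC31A, the outer coat, gave -0.07 ± 0.18 with an interval of -0.44 to 0.31. SEC13, the other outer-coat protein, gave 0.61 ± 0.30 (limma adjusted p = 0.235). SEC16B, a scaffold of ER exit sites, gave -0.03 ± 0.22. SEC23IP, which binds the inner coat, gave 0.76 ± 0.31 (limma adjusted p = 0.162). SEC31B, a second outer-coat gene, had the probe set nearest to the threshold among all members that missed it: controls read 802.9, 1187, 1610, 647.9 and 1605 and brain-dead animals 512.3, 764.8, 545.5, 500.7 and 461.3, a log2 change of -1.003 ± 0.279 (limma adjusted p = 0.0505). Its brighter probe set gave -0.68 ± 0.24 (limma adjusted p = 0.113). That one passed without brain-dead animal 1 (limma adjusted p = 0.0395), and leaving out any other single animal did not make it pass. Within COPII, then, the only called gene was higher and the nearest uncalled one pointed lower.

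None of the 5 p24 genes tested passed. TMED3 had the highest point estimate of all member genes, 1.19 ± 0.37 (limma adjusted p = 0.0718), with controls at 531.9, 973.7, 1426, 1133 and 1421 and brain-dead animals at 1216, 4163, 3444, 1600 and 2607. Brain-dead animal 1 alone lay inside the control range, and without it the gene passed (limma adjusted p = 0.0384). TMED10, a core p24 subunit, gave 0.47 ± 0.24 (limma adjusted p = 0.255). TMED1 gave 0.23 and TMED4 gave -0.28, while TMED6 gave -0.71 ± 0.60, the widest error of the family.

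The COPI genes, which build the retrieval coat, gave no call among 3 tested and a median of -0.71. COPG2, a gamma subunit, gave -0.71 ± 0.27 (limma adjusted p = 0.131), with controls at 488.4 to 642.2 and brain-dead animals at 179.5 to 495. COPZ2 and COPZ1 are alternative zeta subunits of the same coat. COPZ2 gave -0.84 ± 0.38 (limma adjusted p = 0.205) and COPZ1 gave 0.63 ± 0.34 (limma adjusted p = 0.276). The alpha subunit COPA was not analysed here. ARCN1, a COPI gene outside the symbol rule, gave 0.52 ± 0.20 on its brightest probe set (limma adjusted p = 0.127). Its groups did not overlap, with controls at 6461 to 11610 and brain-dead animals at 12160 to 15060. ARFGAP1 and ARFGAP2, which switch off the GTPase that recruits COPI, gave 0.55 ± 0.28 (limma adjusted p = 0.251) and -0.30 ± 0.20 (limma adjusted p = 0.407).

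The SEC22 genes, of which SEC22B encodes a SNARE that helps fuse vesicles between ER and Golgi, gave 3 values above 0 and no call. SEC22B gave 0.57 ± 0.28 (limma adjusted p = 0.236), SEC22A 0.22 ± 0.20 and SEC22C 0.29 ± 0.29. Of SEC22C's other 3 tested probe sets, 2 gave values below 0.

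The 11 TRAPP genes tested, subunits of complexes that tether vesicles and activate Rab GTPases, lay on both sides of 0 with a median of -0.04 and no call. TRAPPC6A came closest, at -0.85 ± 0.24 (limma adjusted p = 0.0550): controls read 1001, 1761, 1484, 1617 and 1951, and brain-dead animals 652.6, 898.5, 747.1, 1252 and 801.8. Only brain-dead animal 4 lay above the lowest control, animal 1. Without control animal 1 (0.0405) or brain-dead animal 4 (0.0473) it passed the limma threshold. TRAPPC2 gave -0.63 ± 0.34 (limma adjusted p = 0.291). At the upper end, TRAPPC12 gave 0.48, TRAPPC10 gave 0.41 and TRAPPC14 gave 0.41, and none of these passed.

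By gene, the largest changes past the threshold were in the SEC14-like group, and they pointed in opposite directions. SEC14L2, which encodes a tocopherol- and squalene-binding protein, rose: controls read 219.9, 496.5, 374.3, 812.9 and 619.4 and brain-dead animals 825.3, 1051, 979.7, 1016 and 1373. Every brain-dead animal lay above every control, by a narrow margin between control animal 4 and brain-dead animal 1. The log2 change was 1.17 ± 0.31 (limma adjusted p = 0.0436), or 2.25-fold. SEC14L4, a related gene, fell: controls read 1629, 2199, 2426, 1034 and 1267, and brain-dead animals 808, 847.9, 888.5, 322.3 and 192.8. All brain-dead animals lay below all controls, and animals 4 and 5 were lowest. The log2 change was -1.65 ± 0.42 (limma adjusted p = 0.0380), with the control signal 3.13 times the brain-dead one.

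A second probe set of SEC14L4 gave -1.67 ± 0.41 (limma adjusted p = 0.0315). On it controls read 1729, 2762, 1290, 766 and 1384 and brain-dead animals 1021, 442.7, 587, 360.8 and 209.4, with control animal 4 and brain-dead animal 1 overlapping. SEC14L1, the third gene of the family that could be tested, gave 0.10 ± 0.21 (limma adjusted p = 0.826). The call of SEC14L2 was kept without control animal 4 (0.0175) or 5 (0.0486) and ended without any of the other 8, with values of 0.0520 (brain-dead animal 1 left out) to 0.109 (brain-dead animal 5 left out). SEC14L4 lost its call on the brighter probe set without control animal 1 (0.0734), 2 (0.0949), 3 (0.0907) or 5 (0.0511), or brain-dead animal 4 (0.0878) or 5 (0.0737), and on the second one without control animal 1 (0.0691), 2 (0.0806), 3 (0.0601) or 5 (0.0516), or brain-dead animal 3 (0.0501), 4 (0.0703) or 5 (0.0733).

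**Figure D3:**
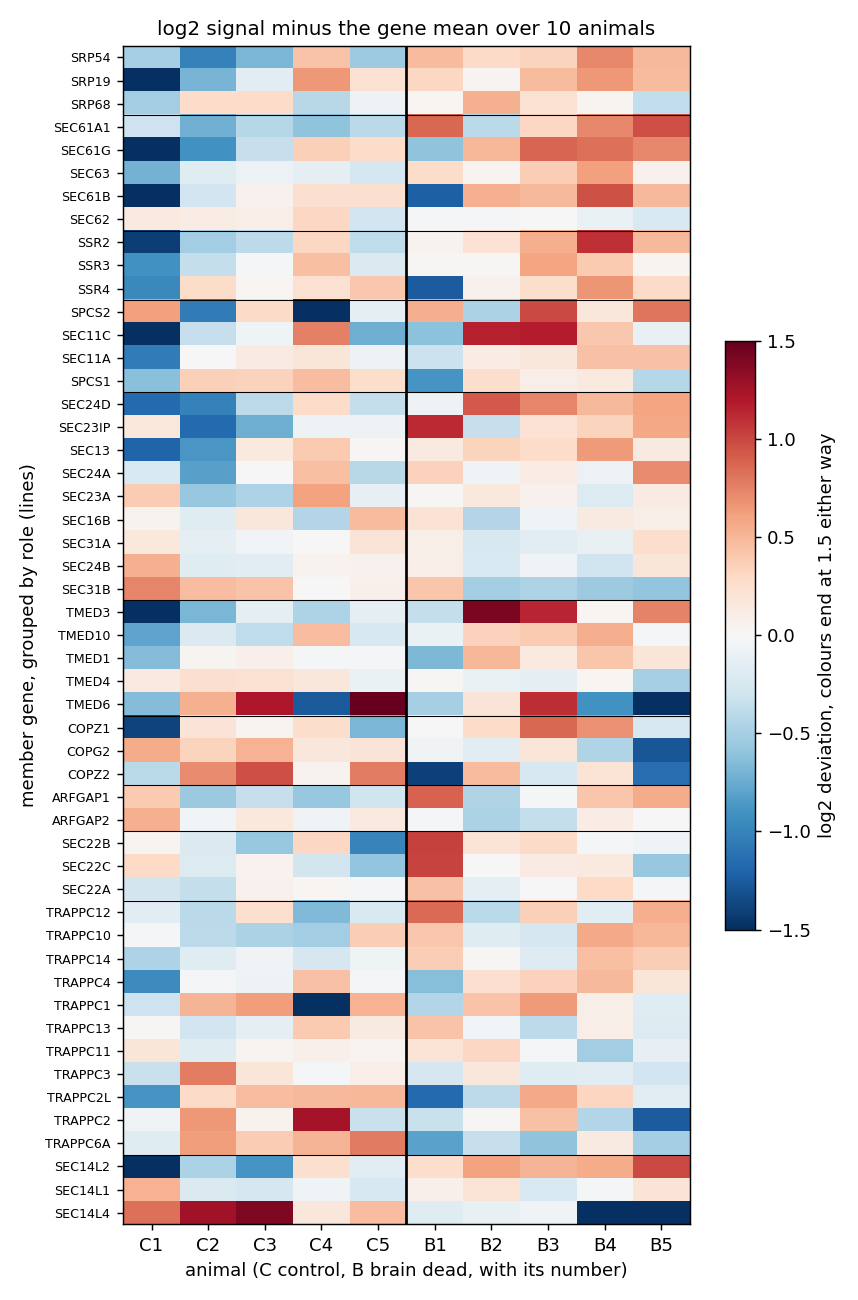
Log2 signal of each member gene in each animal minus the gene's mean over the 10 animals (C control, B brain dead, with the animal's number), with genes grouped by role between lines. Animals C1 and B1 are low together for SEC61B, SEC61G, SEC11C, SSR4, TRAPPC2L and TMED3 and high together for SEC22C, ARFGAP1 and SEC23IP.

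The animals numbered 1 lay away from the others for many members in both groups. Their mean log2 signal lay below that of the other animals by -1.70 for SEC61B, -1.43 for SEC61G, -1.41 for SEC11C, -1.38 for SSR4, -1.29 for TRAPPC2L and -1.20 for TMED3 (difference adjusted for group, brightest probe set). It lay above the others by 0.82 for SEC22C, 0.80 for ARFGAP1 and 0.79 for SEC23IP. The low genes included small channel, TRAP and signal peptidase subunits. With both animals left out, none of the 5 member genes kept its call on its brightest probe set. The log2 changes were then 0.93 for SEC61A1 (limma adjusted p = 0.0969), 0.91 for SRP54 (0.118), 1.06 for SEC24D (0.0625), 0.99 for SEC14L2 (0.0769) and -1.81 for SEC14L4 (0.0790), so the sizes stayed close with 4 animals a group. The second probe set of SEC14L4 kept its call, at -1.90 (limma adjusted p = 0.0394), and that of SEC61A1 did not, at 1.13 (0.0844). Of all probe sets tested, 674 were then called in place of 1627.

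Probe sets of the same gene mostly pointed the same way. Of 26 member genes with at least 2 probe sets tested, 20 had all changes of 1 sign, and SEC31A, TRAPPC3, SEC22C, TRAPPC13, SEC63 and SRP19 had both signs. No gene had probe sets past the threshold in opposite directions. The other 25 genes rested on 1 tested probe set, among them SRP54, SEC24D and SEC14L2. The annotation gives SRP19 and TMED10 a pair of gene IDs each, so their probe sets may not all belong to the gene named.

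**Figure D4:**
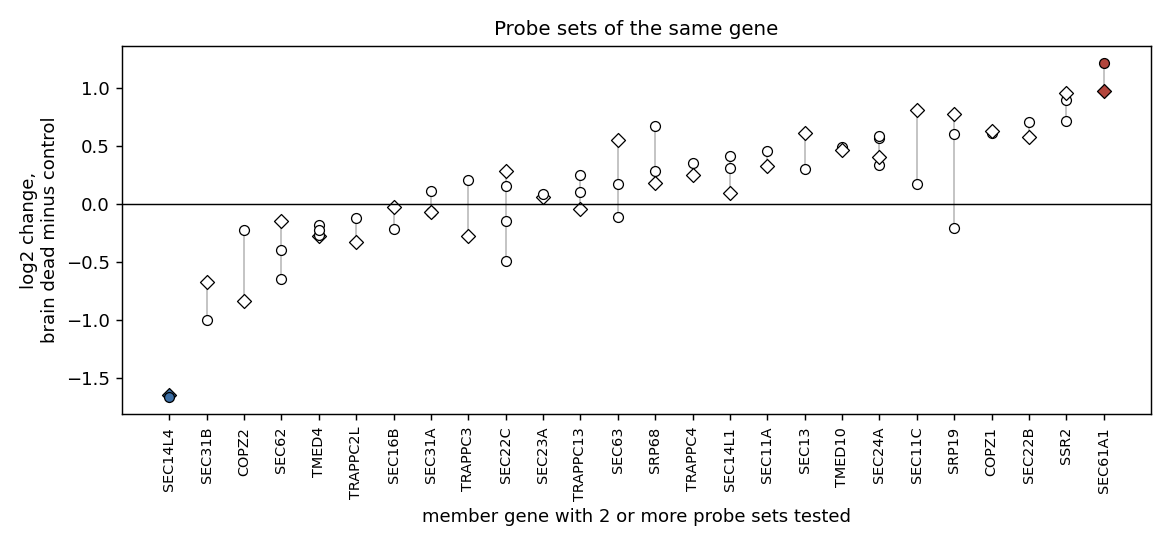
Log2 change (brain dead minus control) of each tested probe set for the 26 member genes with at least 2, ordered by median; diamonds mark the probe set of highest mean and filled symbols passed the adjusted threshold of 0.05. Both probe sets of SEC61A1 and of SEC14L4 are filled, and 6 genes have symbols on both sides of 0.

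The wider pathway was read from 99 further genes of ER entry, glycosylation, membrane insertion, vesicle traffic and its transcription factors, of which 79 were tested. By brightest probe set 2 rose, none fell, and 57 lay above 0 with a median of 0.16, against 2.9% of all genes higher and 3.87% lower. The SRP receptor subunit SRPRA gave 0.40 (limma adjusted p = 0.377). Of 4 translocon partners 2 lay above 0 (median 0.014), and of 11 genes of membrane insertion 8 did (median 0.07). Of 9 oligosaccharyltransferase genes 8 lay above 0, with none called and a median of 0.15. The 13 genes of the COPII GTPase, exit sites and cargo receptors had 7 above 0, a median of 0.09 and 1 called. The 9 genes of COPI, its GTPases and its retrieval receptors had 6 above 0 and none called, and the 24 SNAREs and tethers had 19 above 0, a median of 0.20 and none called. Of 8 transcription factors 6 lay above 0, with 1 called and a median of 0.54.

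CREB3, a membrane-bound transcription factor that is cut loose on leaving the ER, rose. Controls read 887, 1117, 1195, 2239 and 1260 and brain-dead animals 1866, 2021, 2935, 3183 and 3277, so that control animal 4 alone lay within the brain-dead range. Its log2 change was 1.02 ± 0.27 (limma adjusted p = 0.0434), while its other probe set gave -0.09. The call was kept without control animal 4 (0.0127) or brain-dead animal 1 (0.0404) or 2 (0.0410), and ended without any other, from 0.0733 without control animal 5 to 0.106 without brain-dead animal 5. ERGIC2, a cargo receptor between ER and Golgi, rose by 1.11 ± 0.31 (limma adjusted p = 0.0484), and its other 2 probe sets gave 1.02 and 1.33. Its controls read 4227, 2813, 4017, 8787 and 4676 and its brain-dead animals 7135, 16410, 9762, 8546 and 9392, with control animal 4 above brain-dead animals 1 and 4. Its call was kept without control animal 4 (0.0130) or brain-dead animal 1 (0.0482), and ended without any other, from 0.0759 without control animal 5 to 0.119 without control animal 2.

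XBP1 is the transcription factor of the unfolded protein response that drives many ER genes. Both of its probe sets had a change above 0, and 1 passed the threshold. Its brightest one separated the groups, with controls at 24700, 19420, 18700, 31240 and 32570 and brain-dead animals at 48920, 41250, 34480, 36160 and 43820. That change of 0.72 ± 0.20 lay just outside the threshold (limma adjusted p = 0.0542). The other rose by 1.72 ± 0.40 (limma adjusted p = 0.0269), with controls at 3793, 2875, 3916, 9515 and 13730 and brain-dead animals at 14090, 18920, 13060, 22790 and 27640, and only control animal 5 inside the brain-dead range. The latter call ended without control animal 1 (0.0632), 2 (0.0676) or 3 (0.0664), or brain-dead animal 4 (0.0623) or 5 (0.0706). TFG and MIA2, which organise ER exit sites, each rose on 1 dimmer probe set, by 0.96 ± 0.25 (limma adjusted p = 0.0422) and 1.03 ± 0.27 (limma adjusted p = 0.0415), while their brightest ones gave 0.65 (limma adjusted p = 0.0760) and -0.23 (limma adjusted p = 0.693). The 8 tested probe sets of MIA2 ran from -0.67 to 1.07, with 3 below 0. Over the pathway lists 5 of 175 probe sets rose (2.86%), against 2.72% of all. The call of TFG was kept only without control animal 4 or brain-dead animal 2, and that of MIA2 only without control animal 4 or 5 or brain-dead animal 3, and the highest adjusted p on leaving out 1 animal was 0.105 for TFG and 0.0982 for MIA2.

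**Figure D5:**
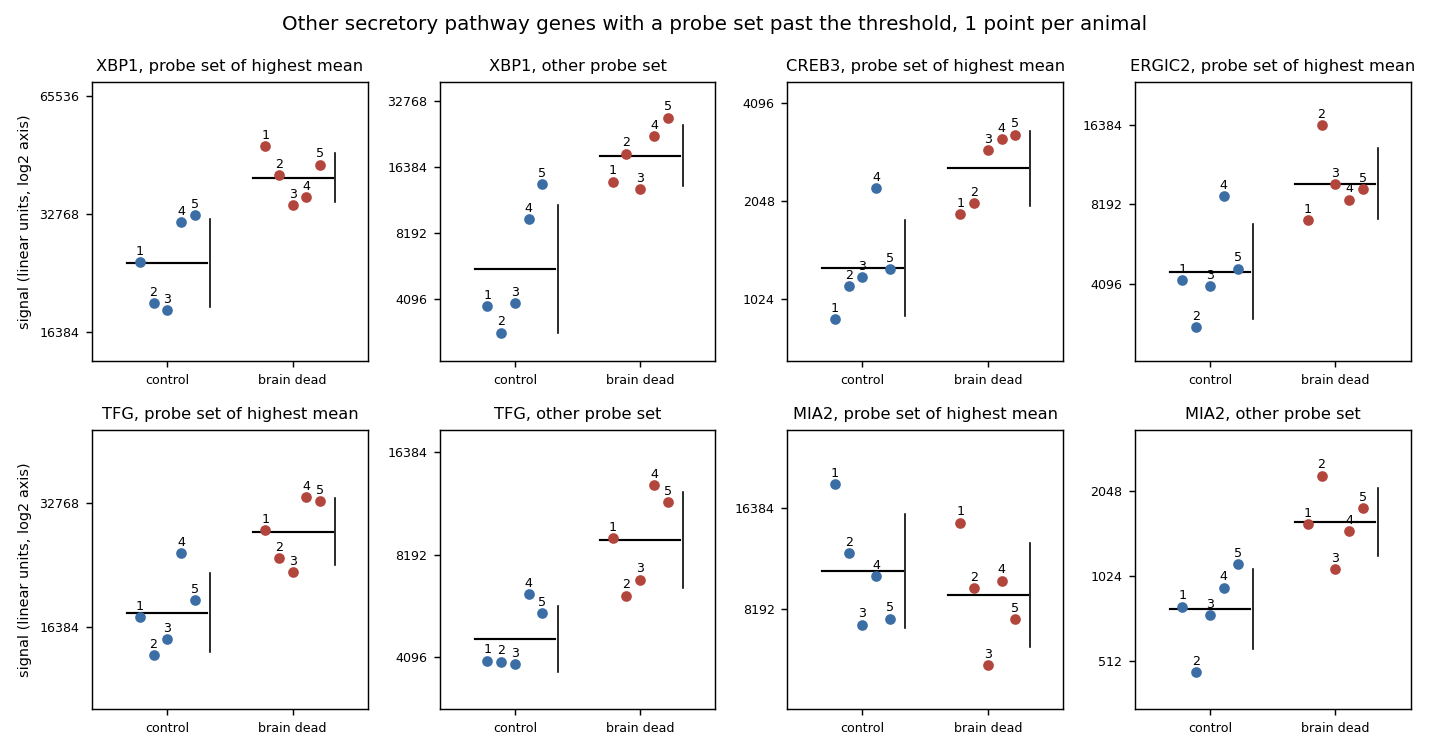
Signal of each animal (linear units on a log2 axis, numbered points; line, mean of log2 signals; bar, 1 SD) for XBP1, CREB3, ERGIC2, TFG and MIA2 in controls (blue) and brain-dead animals (red), at the brightest probe set and at any other probe set past the threshold. XBP1's brightest probe set is the only panel in which the groups do not overlap.

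Sex was not balanced between groups, so the difference of the brain-death change between females and males was tested as an interaction. No probe set passed (0%), member or not, with a lowest limma adjusted p of 1.00. At an unadjusted p under 0.05, 1 of 91 member probe sets passed (1.1%), against 3.81% of all. Each group held 2 or 3 animals of a sex, which limits what this test can detect. With sex as a covariate and no interaction, SEC61A1, SRP54 and SEC24D lost their calls on their brightest probe sets.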

How the data were processed

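Liver RNA of 5 brain-dead and 5 control rhesus macaques was extracted with Trizol and columns, per the labels' protocols. The values the authors deposited are linear intensities, 1 for each probe set of an array, made with MAS5 per the submitters' processing notes (version not given in the sources used here). All arrays share a trimmed mean, so they had been scaled, and a common shift of all genes would not be seen. Neither a genome build nor probe coordinates were used, and no sequence or promoter was used.

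Signals were put on a log2 scale with no pseudocount and no further normalization. After 99 control probe sets were left out, probe sets brighter than the median of the array on 5 or more of the 10 arrays were tested, 26653 in all. Names came from the platform annotation of 2016 (24969 probe sets with 1 symbol, 361 with several, 27535 with none in that table), and 103 of 105 member probe sets had a gene ID found in the RefSeq gene table of T2T-MMU8v2.0. Group alone entered lmFit and eBayes (with trend) of limma 3.58.1, run in R 4.3.3, with Benjamini-Hochberg adjustment over all 26653 and a threshold of 0.05. A gene was represented by its tested probe set with the highest mean. Errors are limma standard errors.

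The members, lists, markers and alternatives were chosen with earlier results of these data known. Values were planned for genes with a probe set past the threshold, for at least 2 genes per role by absolute change, for 8 subunits and for up to 12 pathway genes past it. The other genes named, and XBP1, TFG and MIA2, were chosen after their values were seen. The 24 alternatives covered scaling, pseudocount, filter, covariates, replicate block, variance model, array weights, probe set choice and leaving out animals. The fit was tested on simulated data. Python 3.11.15 with matplotlib 3.10.9 drew the figures, and data.table (version 1.17.8) read the tables.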

Additional observations from a re-analysis of the deposited data

Results flagged for a closer look

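For each of the 51 member genes, the animal at either end of a group was compared with its neighbour, as the gap on the log2 scale divided by the group's range. The gap passed the critical value of 0.71 for 5 animals (Dixon's 95% value) in 14 of 102 groups, where chance gives about 1 in 20. In 12 of the 14 the animal was numbered 1, and in 10 it was the lowest.

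Among controls, animal 1 was low for SEC11A (4001 against 7874 for the next animal, gap ratio 0.797), SEC63 (5580 against 7581, 0.715), SPCS1 (15640 against 28860, 0.818), SSR4 (6396 against 12740, 0.729), TMED1 (947.7 against 1460, 0.865) and TRAPPC2L (1469 against 3313, 0.849). It was high for ARFGAP1 (1669 against 1027, 0.728) and SEC14L1 (5265 against 3539, 0.745). Among brain-dead animals, animal 1 was low for SEC61B (8201 against 26770, 0.783), SEC61G (4903 against 10570, 0.750) and TRAPPC4 (3659 against 6471, 0.734) and high for SEC31B (1250 against 679.4, 0.865). The other 2 were control animal 5, low for TMED4 (3557 against 4216, 0.738), and brain-dead animal 2, high for TRAPPC3 (3612 against 2886, 0.716). In the labels the 2 animals numbered 1 share that number and are both female, as are other animals of both groups. What sets them apart was not tested.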

How the results depend on the processing

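The median log2 change of member genes stayed between 0.18 and 0.36 over the 24 alternatives, and 12 or 13 of 15 ER entry genes stayed above 0. Counts of calls moved by over 1.5 times under several, and the cause was not tested. The base counts are 1627 probe sets, 7 member probe sets, 5 member genes and 2 pathway genes. Median centring gave 4 member probe sets, 2 member genes and 0 pathway genes. With no filter, 1056 probe sets were called, of which 1 member probe set, with 0 member genes and 0 pathway genes. With sex in the model the counts were 3 member genes and 1 pathway gene. The 3 were SEC14L2 (limma adjusted p = 0.04535), SEC14L4 (0.0334) and TRAPPC6A (0.0445), the last a new call. SEC61A1 (0.0551), SRP54 (0.0597) and SEC24D (0.0551) lost their calls on their brightest probe sets. The second probe set of SEC61A1 kept its call (0.0251). As 1 brain-dead animal had no age given, age could not enter as labelled for every animal. With sex and age the counts were 1035 probe sets, 2 member probe sets, 1 member gene and 1 pathway gene. Without the trend they were 3 member probe sets, 1 member gene and 0 pathway genes, and with array weights 11 member probe sets and 4 pathway genes. Without both animals numbered 1 they were 674 probe sets, 1 member probe set, 0 member genes and 0 pathway genes. Leaving out 1 animal gave 660 (without control animal 2) to 2289 probe sets (without control animal 4), 0 to 9 member probe sets, 0 to 5 member genes and 0 to 6 pathway genes.

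The replicate numbers as a block (replicate block) gave 3013 probe sets, 17 member probe sets, 11 member genes and 4 pathway genes. The 6 member genes it added were SSR2 (limma adjusted p = 0.0115), TMED3 (0.0188), SEC61G (0.0221), SEC23IP (0.0277), TRAPPC6A (0.0287) and SEC31B (0.046), and among pathway genes it added XBP1 (0.0302) and ended ERGIC2 (0.0562). The deviations of same-numbered animals correlated at 0.38 for number 1 and at 0.06 to 0.13 for the others. The median for animals of different numbers was -0.04. Only those numbered 1 correlated best with their own number, so the numbers were not taken to pair the animals.

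Genes near 0 changed sign. Under median centring SEC16B gave 0.043, SEC31A 0.0011, TRAPPC11 0.0074 and TRAPPC13 0.025. SSR4 gave -0.14 with sex, and with sex and age SSR4 gave -0.16, TRAPPC1 -0.030, TRAPPC11 0.012 and TRAPPC13 0.069. With probe sets averaged, SEC22C gave -0.051 and TRAPPC13 0.10. Leaving out 1 animal gave -0.14 to 0.089 for SEC16B, -0.072 to 0.22 for SEC23A, -0.23 to 0.33 for SSR4, -0.23 to 0.40 for TRAPPC1, -0.15 to 0.062 for TRAPPC11 and -0.16 to 0.050 for TRAPPC13.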
